A study of Mus musculus with 12 samples.

Results

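Complement was examined through 9 genes, C1qa, C1qb, C1qc, C4b, C3, Hc, C3ar1, C5ar1 and Cd55, which are 9 of the 31053 genes listed in the matrices of this single-nucleus RNA sequencing of mouse lung. They were taken by symbol, as components and regulators of 1 pathway, and each symbol matched 1 row in all 12 libraries. Values are unique molecular identifiers (UMIs), each counting 1 captured RNA molecule in 1 nucleus. Every mouse was C57BL/6J and 7 weeks old when bleomycin or PBS was given. Each lung gave 1 library from frozen tissue whose nuclei were sorted for DAPI. The PBS_vehicle group received PBS through the trachea and then vehicle. PBS_NVP received PBS and then NVP-BHG712, which blocks the receptor tyrosine kinase EphB4. Bleo_vehicle received bleomycin at 1.2 U/kg, which damages the alveoli and brings on scarring, and then vehicle. Bleo_NVP received bleomycin and then NVP-BHG712. Vehicle or inhibitor was started on day 5 and given for 5 days, and lungs were taken on day 14, with 3 mice in each of the 4 groups. The comparisons ask what bleomycin changed, and whether the inhibitor changed it in injured or uninjured lung.

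Complement is a cascade of plasma and tissue proteins that marks targets for removal and recruits immune cells. The classical pathway opens when C1q, built from the products of C1qa, C1qb and C1qc, binds its target, after which C4 and C3 are cleaved and C3 fragments coat the surface. Cleavage of C3 and of C5, the product of Hc, releases the small peptides that C3ar1 and C5ar1 recognise on myeloid cells, while Cd55 (decay-accelerating factor) takes apart the enzymes that cleave C3. The liver supplies most plasma complement, macrophages are known makers of C1q, and epithelium and mesenchyme of the lung make components locally.

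The 12 libraries held 49163 barcodes and 184940649 UMIs, from 3556084 to 61947690 UMIs per library, and 44611 nuclei were kept, from 1168 to 11867 per library. No pair of libraries shared more than 34 barcodes. The Bleo_vehicle libraries stood apart, with a median of 0.668% to 2.56% of UMIs from mitochondrial genes per nucleus, against at most 0.0496% in any other library. The labels give run numbers 1 to 3 to the PBS libraries and 4 to Bleo_NVP, and batch numbers 6 and 7 to Bleo_vehicle, so for every bleomycin comparison group and batch cannot be told apart. Nuclei were grouped into 19 classes named from marker genes, none of them a gene described here, and each class name is to be read as "like" that cell type. Counts were few for several of the genes. Over all kept nuclei there were 758 UMIs of C1qa, 735 of C1qb, 428 of C1qc, 377 of C3ar1 and 1007 of C5ar1, against 2752 of C3, 3181 of C4b, 7183 of Cd55 and 34573 of Hc.

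The genes for the C1q chains lie side by side. On GRCm38 they occupy chromosome 4, minus strand, with C1qb (ENSMUSG00000036905) at chr4:136880129-136886187, C1qc (ENSMUSG00000036896) at chr4:136889804-136893065 and C1qa (ENSMUSG00000036887) at chr4:136895917-136898803. There were 3616 bases between C1qb and C1qc and 2851 between C1qc and C1qa. The receptor gene C3ar1 (ENSMUSG00000040552), also on the minus strand, lies at chr6:122847138-122856161. The bases upstream of the annotated starts of C1qb, C1qc and C3ar1 are shown because these 3 genes changed together in the whole lung. C1qa changed with them but had no promoter entry. The bases come from RefSeq on GRCm38.p6 in the direction of transcription. Capitals mark GAGGAA, the core letters bound by the macrophage factor PU.1, on either strand, where the reverse reads TTCCTC.
C1qb, chr4:136886201-136886450: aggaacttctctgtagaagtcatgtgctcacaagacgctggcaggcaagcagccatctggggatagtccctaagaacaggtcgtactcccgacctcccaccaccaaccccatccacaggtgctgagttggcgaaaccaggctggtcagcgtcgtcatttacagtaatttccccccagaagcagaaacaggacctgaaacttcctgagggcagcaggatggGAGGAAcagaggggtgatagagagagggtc
C1qc, chr4:136893066-136893164: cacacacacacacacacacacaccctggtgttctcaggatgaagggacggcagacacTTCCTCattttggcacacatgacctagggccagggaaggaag
C3ar1, chr6:122856162-122856407: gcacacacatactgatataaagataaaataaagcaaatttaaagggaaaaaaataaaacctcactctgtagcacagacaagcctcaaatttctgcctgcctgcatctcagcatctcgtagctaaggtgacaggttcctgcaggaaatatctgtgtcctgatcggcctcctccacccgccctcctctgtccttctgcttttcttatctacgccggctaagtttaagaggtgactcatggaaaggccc
The motif occurred in the 250 bases upstream of 7639 of 32851 RefSeq promoters (23.3%), and of the 7 genes described here that had an entry it was in C1qb and C1qc. These are matches of letters and not sites.

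The C1q genes rose after bleomycin in mice given vehicle and were low again in mice given the inhibitor. Levels are given in CPM, counts-per-million of the UMIs in the summed nuclei. For each lung as a whole, C1qa stood at 2.07, 0.416 and 1.02 CPM in PBS_vehicle and at 1.79, 1.53 and 0.864 in PBS_NVP. It stood at 19.1, 8.18 and 9.15 in Bleo_vehicle and at 0, 1.02 and 1.49 in Bleo_NVP. All 3 Bleo_vehicle lungs were above the other 9. On the log2 scale C1qa was 3.28 higher (SE 0.60, adjusted p = 0.0188) in Bleo_vehicle than in PBS_vehicle, and 3.68 lower in Bleo_NVP than in Bleo_vehicle (change -3.68, SE 0.66, adjusted p = 0.0121), by the edgeR quasi-likelihood test with Benjamini-Hochberg adjustment over the 14442 genes tested.

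The other chains followed the same order of groups. C1qb stood at 1.21, 1.25 and 0.205 CPM in PBS_vehicle, at 1.03, 1.53 and 1.38 in PBS_NVP, at 25.9, 15.2 and 6.91 in Bleo_vehicle and at 0.284, 0.580 and 0.557 in Bleo_NVP. The edgeR changes of C1qb were 4.08 (SE 0.56, adjusted p = 0.00426) for bleomycin and -4.94 (SE 0.65, adjusted p = 0.00279) for the inhibitor after bleomycin. C1qc was the least abundant chain, with 1.26, 0.416 and 0 CPM in PBS_vehicle, 1.49, 1.40 and 0.173 in PBS_NVP, 11.9, 5.82 and 4.37 in Bleo_vehicle, and 0.284, 0.725 and 0.186 in Bleo_NVP. Its edgeR changes were 3.39 (SE 0.72, adjusted p = 0.0331) and -4.01 (SE 0.85, adjusted p = 0.0214). The low values rest on few UMIs. Bleo_NVP held 15 of C1qa, 8 of C1qb and 7 of C1qc, and PBS_vehicle 54, 37 and 31. Bleo_vehicle held 618, 639 and 333. For each chain the 3 Bleo_vehicle lungs lay above all others, and Bleo_vehicle replicate 1, the library with the highest mitochondrial share, was the highest. In bulk sums such as these, fewer cells of a type and less RNA per cell cannot be told apart.

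C3ar1, which encodes the receptor of the C3 peptide, moved with the C1q chains. It stood at 0.674, 0 and 1.02 CPM in PBS_vehicle, at 0.332, 0.382 and 0.173 in PBS_NVP, at 10.0, 5.45 and 4.78 in Bleo_vehicle and at 0.568, 0.145 and 0.186 in Bleo_NVP. All Bleo_vehicle lungs were again above the rest. The edgeR change was 3.63 (SE 0.64, adjusted p = 0.0158) for bleomycin and -4.60 (SE 0.78, adjusted p = 0.00971) for the inhibitor after bleomycin. The C3ar1 values rest on 4 UMIs in Bleo_NVP and 20 in PBS_vehicle, against 339 in Bleo_vehicle. C5ar1, the receptor of the C5 peptide, did not pass the test in either comparison, with changes of 0.47 (adjusted p = 0.610) and -1.32 (adjusted p = 0.123) by edgeR. Its values were 9.21, 2.08 and 4.51 in PBS_vehicle, 7.43, 2.93 and 3.45 in PBS_NVP, 9.33, 4.93 and 7.45 in Bleo_vehicle, and 2.56, 3.19 and 2.60 in Bleo_NVP. The Bleo_NVP lungs thus lay below the Bleo_vehicle lungs, while the PBS groups overlapped both.

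C3, the hub of the cascade, fell with the inhibitor after bleomycin. It stood at 14.1, 7.77 and 13.3 CPM in PBS_vehicle, at 19.5, 7.90 and 10.7 in PBS_NVP, at 22.4, 21.4 and 24.1 in Bleo_vehicle and at 5.96, 6.09 and 7.06 in Bleo_NVP. The Bleo_NVP lungs lay below all others and the Bleo_vehicle lungs above all others. The edgeR change was -1.81 (SE 0.30, adjusted p = 0.00860) for the inhibitor after bleomycin, and 1.013 (adjusted p = 0.0758) for bleomycin. C4b, which encodes the component that C1-complex proteases cleave, did not pass. Its values were 17.4, 14.7 and 17.0 in PBS_vehicle, 20.5, 14.4 and 18.5 in PBS_NVP, 47.8, 32.7 and 17.9 in Bleo_vehicle and 21.9, 17.1 and 16.7 in Bleo_NVP, with edgeR changes of 1.06 (adjusted p = 0.0906) and -0.80 (adjusted p = 0.130). Only replicates 1 and 2 of Bleo_vehicle stood clear of the other groups. C4b has a close copy, C4a, and Cd55 a close copy, Cd55b, so their counts are uncertain to the extent that reads fit both.

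Hc and Cd55, the most abundant of the 9, did not pass in any whole-lung comparison. Hc ranged from 84.7 to 269 CPM in PBS_vehicle, from 88.4 to 214 in PBS_NVP, from 28.2 to 350 in Bleo_vehicle and from 84.1 to 103 in Bleo_NVP. The edgeR changes of Hc were 0.25 (adjusted p = 0.870) and -0.83 (adjusted p = 0.431). Cd55 ranged from 37.3 to 51.7 in PBS_vehicle, from 41.8 to 44.0 in PBS_NVP, from 21.0 to 55.0 in Bleo_vehicle and from 35.6 to 62.5 in Bleo_NVP, with edgeR changes of -0.12 (adjusted p = 0.863) and 0.31 (adjusted p = 0.533). For both genes the spread within Bleo_vehicle exceeded the distance between the groups.

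**Figure D1:**
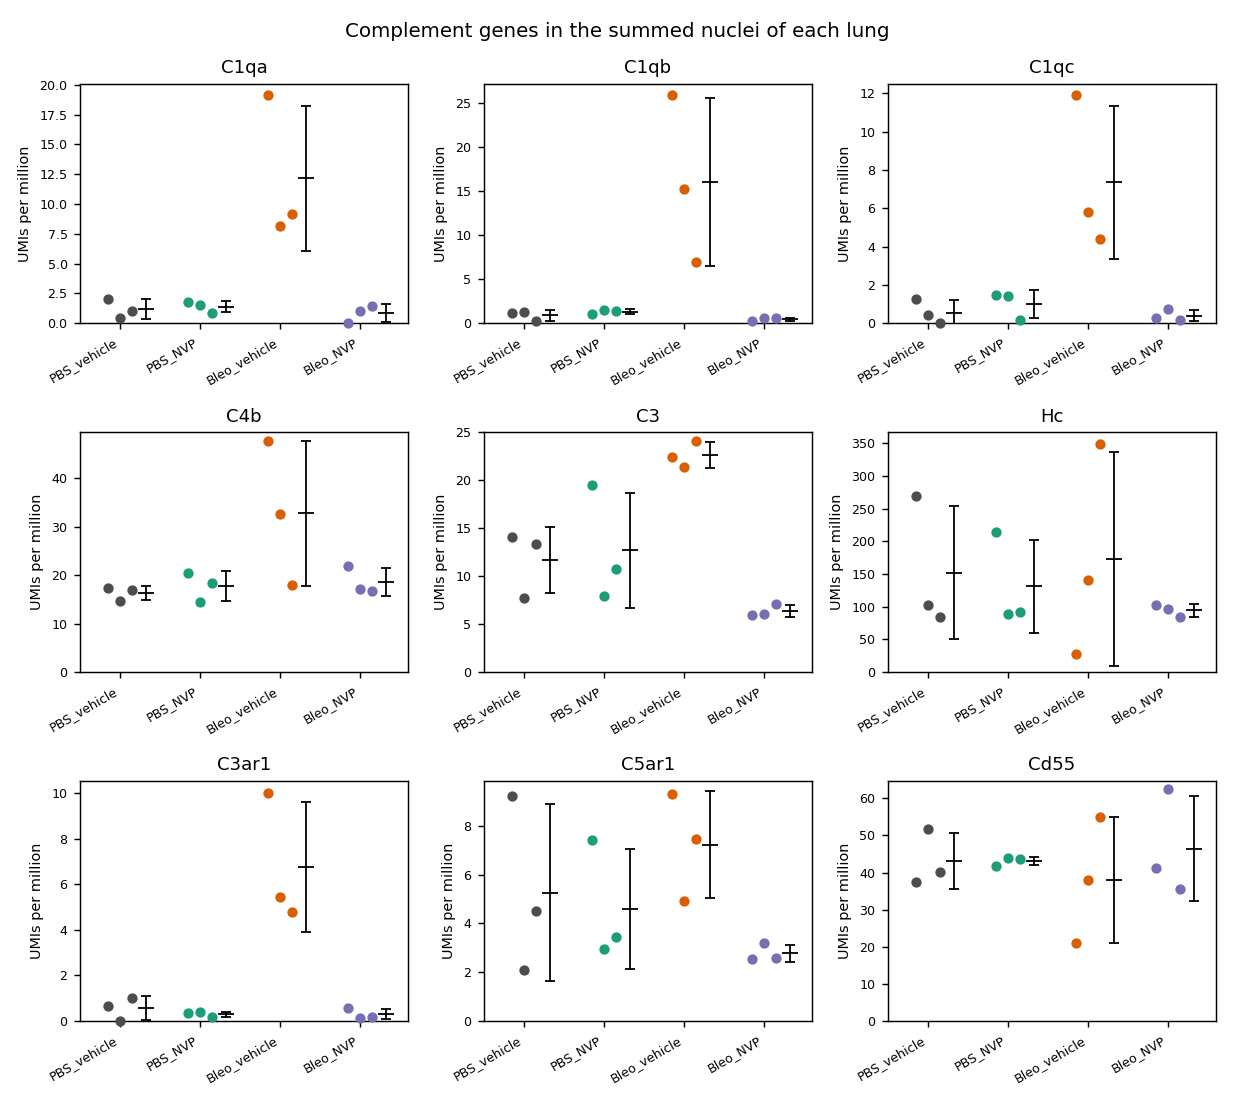
CPM in the summed nuclei of each lung (vertical axes, linear from 0) for the 9 genes in the 4 groups; each point is 1 mouse and the bar beside it the mean ± SD of 3, cut at 0. The C1qa, C1qb, C1qc and C3ar1 points of Bleo_vehicle lie above all other points, and the C3 points of Bleo_NVP, between 5.96 and 7.06, lie below all others.

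In all, 4 of the 9 genes were called higher in Bleo_vehicle than in PBS_vehicle and none lower, where 2.44% of the genes tested were called and 1.84% were called higher. With the inhibitor after bleomycin, 5 of 9 were called lower and none higher, where 5.51% of genes were called and 3.55% were called lower. The median change over the 9 was 1.06 and -1.81 respectively, beside 0.01 and -0.05 over all genes tested. Values did not overlap between Bleo_vehicle and PBS_vehicle for 6 of the 9 genes, where this held for 20.3% of genes, nor between Bleo_NVP and Bleo_vehicle for 6, where it held for 32.0%. These comparisons share the Bleo_vehicle libraries. C1qb, C1qc and C3ar1 had enough counts to be tested only through that group, where they are high. Their calls, the counts of 4 and 5, the medians and the counts of genes without overlap are therefore not independent of that height. All of these serve as description. When only the 6 libraries of the comparison were fitted, none of the 4 calls of Bleo_vehicle against PBS_vehicle was kept, while all 5 of Bleo_NVP against Bleo_vehicle were. Without PBS_vehicle replicate 2 or without replicate 3 the calls of C1qa and C1qc were lost and 2 calls were left, and without Bleo_NVP replicate 3 only the fall of C1qb was kept. The rise of C1qc was the least stable call. It was lost under 9 of 19 alternatives, among them leaving out PBS_NVP replicate 2, Bleo_NVP replicate 1 or 3, or Bleo_vehicle replicate 1 or 2, and its change ran from 2.84 to 4.82 without 1 library. The fall of C1qc was lost without any 1 of the Bleo_NVP libraries, and the fall of C3 without replicate 1 or 3 of that group.

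The inhibitor in uninjured lung and bleomycin under the inhibitor gave no calls. In PBS_NVP against PBS_vehicle the edgeR changes of the 9 genes lay between -0.84 for C3ar1 and 0.63 for C1qc. Of all genes tested 0% were called and 43 had an unadjusted p under 0.05, none of them among the 9. In Bleo_NVP against PBS_NVP 0% of genes were called as well, and 397 had an unadjusted p under 0.05. C3 was among these, with an edgeR change of -0.89 (unadjusted p = 0.0106, adjusted p = 0.970), and all other changes of the 9 lay between -1.24 and 0.21. The difference between the inhibitor effects after bleomycin and after PBS was called for 0.298% of genes and for 1 of the 9, C1qb, at -5.29 (SE 0.90, adjusted p = 0.0394) by edgeR. The same difference was -3.84 (adjusted p = 0.116) for C1qa, -4.63 (adjusted p = 0.126) for C1qc, -3.76 (adjusted p = 0.208) for C3ar1 and -1.90 (adjusted p = 0.0814) for C3.

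A wider list of complement genes places these 9 in the pathway. Of 51 genes listed, 50 were in the files and 31 had enough counts to be tested. Apart from the 9 genes, 1 of the 22 others tested was called in each of these comparisons, a number near the 2.44% and 5.51% of all genes. It was Clu, which encodes clusterin, a secreted inhibitor of the terminal complex. Clu stood at 6.56, 4.99 and 3.69 CPM in PBS_vehicle and at 9.80, 16.1 and 18.0 in Bleo_vehicle. In Bleo_NVP it stood at 1.42, 3.34 and 4.46, so that the Bleo_vehicle lungs did not overlap either group. The edgeR changes of Clu were 1.58 (adjusted p = 0.0488) and -2.19 (adjusted p = 0.0132). The first call was lost under 11 of 19 alternatives, among them leaving out any 1 of the PBS_vehicle or Bleo_NVP libraries, and the second without any 1 of the Bleo_NVP libraries. By role, with the 9 genes counted in, the calls after bleomycin were 3 of 7 genes that initiate the classical pathway, 1 of 7 receptors and 1 of 10 regulators, with 0 of 2 lectin pathway genes, 0 of 2 genes of the C3 and alternative pathway group and 0 of 3 terminal components. With the inhibitor after bleomycin the counts were the same except for the C3 group, where C3 itself made 1 of 2. The counts by role include C1qb, C1qc and C3ar1, tested only through Bleo_vehicle, and serve as description too.

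The level of each gene was then set out by class, in CPM of the UMIs summed over the nuclei of a class in a library, for libraries with at least 20 such nuclei. The C1q chains were highest in macrophages. In interstitial macrophages, the tissue macrophages outside the air spaces, C1qa averaged 110 ± 54.4 CPM, C1qb 116 ± 54.8 and C1qc 85.7 ± 52.5 (SD, n = 10 libraries). The next class, dendritic cells, held 11.4, 22.3 and 6.08 CPM, and the 2 classes were apart by more than their SDs for each chain. Below dendritic cells no neighbouring classes differed beyond their spread. C3ar1 was also highest in interstitial macrophages, at 48.5 ± 36.7 CPM (n = 10), but was not apart from dendritic cells at 9.69 CPM. C5ar1 was shared by both kinds of macrophage, with 61.4 ± 44.2 CPM in interstitial and 48.7 ± 15.2 in alveolar macrophages (n = 12), the cells that patrol the air spaces. These did not differ beyond their spread, and alveolar macrophages were apart from the class below them, mesothelium, at 6.40 CPM.

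C3, C4b and Hc were highest in structural cells. C3 was highest in mesothelium, the sheet that lines the lung surface, at 268 ± 66.6 CPM (n = 8 libraries), apart from fibroblasts at 23.5 ± 11.8 (n = 12). C4b had the same order, with 207 ± 85.1 CPM in mesothelium, 48.6 ± 20.8 in fibroblasts and 39.1 ± 29.2 in interstitial macrophages, and only the first was apart from the next. Hc was highest in AT2 cells, the surfactant-producing cells of the alveolus, at 1503 ± 747 CPM (n = 12) against 100 ± 84.9 in B cells, the class below. Cd55 had no single source, with 381 ± 183 CPM in B cells (n = 7), 314 ± 102 in club cells and 201 ± 74.6 in ciliated cells (n = 12 each), and none of these neighbours differed beyond their spread.

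**Figure D2:**
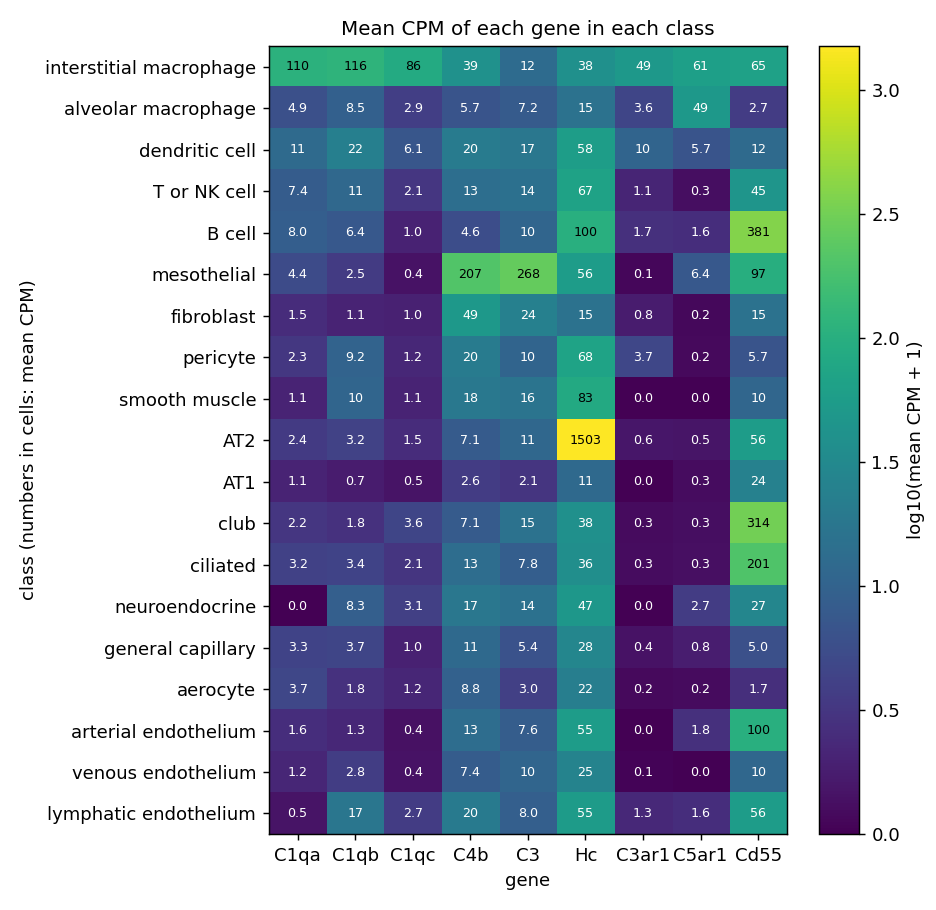
Mean CPM of each of the 9 genes (columns) in each class (rows), over libraries with at least 20 nuclei of the class; colour shows log10(mean CPM + 1) and the printed numbers are the means. The 3 C1q genes and C3ar1 peak in interstitial macrophages, C3 and C4b in mesothelium, Hc in AT2 cells at 1503 CPM and Cd55 in B, club and ciliated cells.

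Where the molecules lay depended also on how many nuclei a class had. Interstitial macrophages held 41.3% of all C1q UMIs and alveolar macrophages 10.4%, but 1590 of the 1921 C1q UMIs came from Bleo_vehicle. By group, interstitial macrophages held, of the C1q sum over the 3 chains, 98 of 122 UMIs (80.3%) in PBS_vehicle, 132 of 179 (73.7%) in PBS_NVP, 545 of 1590 (34.3%) in Bleo_vehicle and 18 of 30 in Bleo_NVP. For C3ar1 the shares in interstitial and alveolar macrophages over all libraries were 65.8% and 14.6%, and for C5ar1 they were 14.1% and 74.3%. Fibroblasts, which were numerous, held 41.7% of C3 and 63.7% of C4b UMIs, although the mesothelium with the higher levels held 18.4% and 10.6%. AT2 cells held 82.7% of Hc UMIs. Cd55 was spread over club cells (28.2%), ciliated cells (17.7%), AT1 cells (13.1%), AT2 cells (11.2%) and fibroblasts (9.36%).

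**Figure D3:**
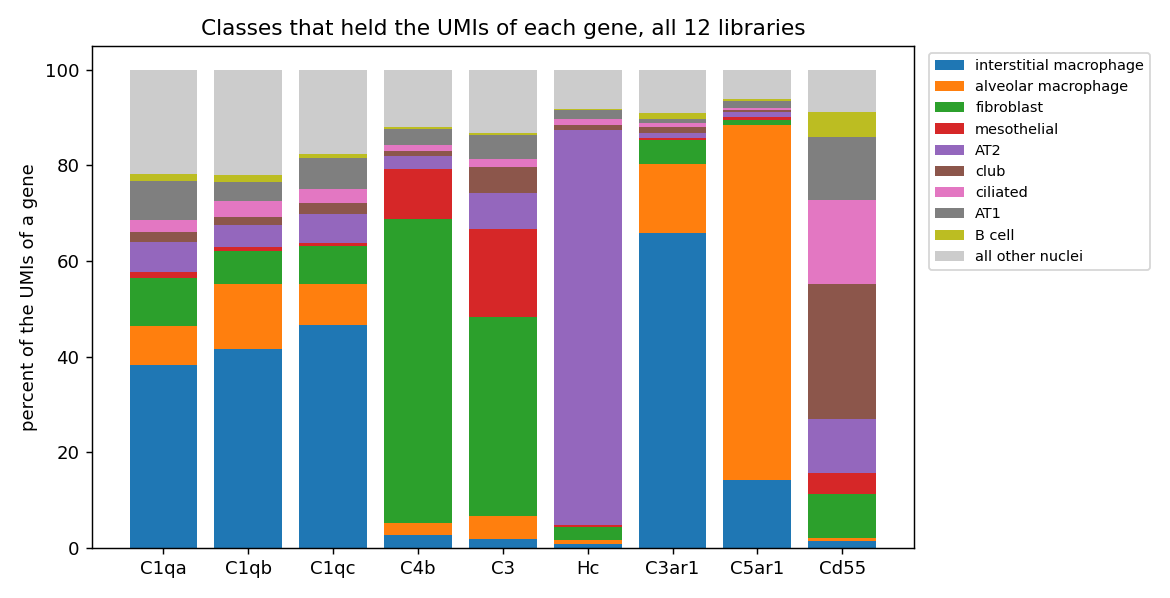
Percent of the UMIs of each gene (vertical axis) that lay in nuclei of each class, over all 12 libraries together; each bar adds to 100. C3ar1 and C5ar1 divide differently between interstitial macrophages (65.8% and 14.1%) and alveolar macrophages (14.6% and 74.3%), and AT2 cells hold 82.7% of Hc.

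Single nuclei carried few of these molecules, so shares of nuclei with a UMI were compared after each nucleus was thinned to 1000 UMIs. Any C1q UMI was found in 26.7% of interstitial macrophage nuclei (213 of 798, exact 95% interval 23.7% to 29.9%, counting error only), or 41.9% before thinning. T or NK cells, which should lack C1q, gave 4.02% and B cells 2.17%, at median depths of 1276 and 1310 UMIs before thinning against 1844 in interstitial macrophages. The share in Bleo_vehicle alone was 26.5% for interstitial macrophages and 6.98% for T or NK cells, while PBS_vehicle gave 24.0% (12 of 50) for interstitial macrophages and 0 of 68 T or NK nuclei, which allows a share of up to 4.41%. Alveolar macrophages of Bleo_vehicle gave 2.67%, below the 6.98% of T or NK cells and the 3.53% of B cells in the same group, so that this share does not exceed that of cells that should lack C1q. In PBS_vehicle it was 0 of 454 nuclei, which allows up to 0.661%. C3ar1 was found in 8.65% of interstitial macrophage nuclei against 0.287% of T or NK cells, and C5ar1 in 4.92% of alveolar and 4.39% of interstitial macrophage nuclei against 0 of 348 T or NK cells, which allows up to 0.862%. Hc was found in 67.0% of AT2 nuclei, 7.43% of B cells and 2.59% of T or NK cells.

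Most C1q-positive nuclei had a UMI of 1 chain only. Of 1068 interstitial macrophage nuclei, 447 had a UMI of any chain before thinning, 103 of 2 chains and 24 of all 3. More than 1 chain was found in 47.2% of the 36 positive nuclei of PBS_vehicle, 37.1% of the 70 of PBS_NVP, 24.8% of the 330 of Bleo_vehicle and 18.2% of the 11 of Bleo_NVP. These counts were not thinned, depend on depth and pool nuclei over mice. Median UMIs per barcode ran from 1731 to 5408 over the PBS_vehicle libraries and 2060 to 3371 over PBS_NVP. They ran from 925 to 3160 over Bleo_vehicle and 1715 to 2105 over Bleo_NVP. Of 178 such nuclei with a C3ar1 UMI, 89 (50.0%) also had a C1q UMI, and these were 19.9% of the C1q nuclei. Of 3794 alveolar macrophage nuclei, 155 had a C1q UMI, and 151 of these were in Bleo_vehicle.

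The share of macrophage nuclei was higher in each Bleo_vehicle lung than in any other lung. Interstitial, alveolar and dendritic classes together came to 9.63%, 8.24% and 8.70% of nuclei in PBS_vehicle, 9.42%, 11.8% and 9.65% in PBS_NVP, 27.2%, 14.97% and 14.3% in Bleo_vehicle, and 7.62%, 10.8% and 9.69% in Bleo_NVP. The mean of Bleo_vehicle was 9.96 points above PBS_vehicle and that of Bleo_NVP 9.45 points below Bleo_vehicle, and groups did not overlap in either comparison. The two-sided exact permutation p was 0.1, the smallest that 3 against 3 mice can give. Counting the classes as 1 was chosen after the data were seen, because the line between them moved with the clustering. Interstitial macrophages alone were 4.21% ± 1.40 of nuclei in Bleo_vehicle, 1.09% ± 0.281 in PBS_vehicle and 1.34% ± 0.355 in Bleo_NVP (SD, n = 3, exact permutation p = 0.1, adjusted p = 0.633 and 0.380 over 19 classes). When nuclei were clustered without the Harmony correction for library, these differences became 0.21 and 0.16 points. There, 553 of the 771 Bleo_vehicle nuclei of this class fell into 1 cluster of 1689 nuclei, 1617 of them from Bleo_vehicle, of which 55.4% had been alveolar and 35.3% interstitial macrophages. The joint share was nearly the same without Harmony, at 9.94 points above PBS_vehicle and a change of -9.35 for Bleo_NVP.

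Within these 3 classes taken as 1, C1q was also higher per UMI in Bleo_vehicle. The sum of the 3 chains stood at 34.4, 26.5 and 19.3 CPM of these classes in PBS_vehicle, at 27.7, 52.6 and 25.7 in PBS_NVP, at 171, 115 and 78.6 in Bleo_vehicle and at 4.84, 26.0 and 17.8 in Bleo_NVP. C3ar1 stood at 35.0, 33.6 and 34.3 in Bleo_vehicle, against 0 to 16.1 in PBS_vehicle, 2.34 to 4.78 in PBS_NVP and 2.00 to 9.68 in Bleo_NVP. The Bleo_vehicle lungs lay above all others for both. C5ar1 gave 32.4 to 53.9 in Bleo_vehicle, within the 28.5 to 74.3 of PBS_vehicle. The mix of the 3 classes differed between groups. Interstitial, alveolar and dendritic nuclei numbered 80, 519 and 79 in PBS_vehicle and 149, 865 and 152 in PBS_NVP. They numbered 771, 2086 and 390 in Bleo_vehicle and 68, 324 and 76 in Bleo_NVP. The CPM values were not corrected for this mix and were not tested.

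Within interstitial macrophages alone, no gene passed. C1qb stood at 113 and 182 CPM in the 2 PBS_vehicle libraries with enough nuclei, at 155, 162 and 91.4 in Bleo_vehicle, and at 46.5 and 21.1 in 2 Bleo_NVP libraries. Its edgeR changes were 0.10 (SE 0.48, adjusted p = 0.970) and -2.16 (SE 0.76, adjusted p = 0.648), and the Bleo_NVP values rest on 3 UMIs. C1qa changed by -0.67 (SE 0.53) and 0.02 (SE 0.68), and C1qc by -0.75 (SE 0.62) and -0.42 (SE 0.89). C3ar1 stood at 77.6, 93.5 and 110 CPM in Bleo_vehicle, above the 65.4 and 0 of PBS_vehicle and the 23.3 and 21.1 of Bleo_NVP. Its PBS_vehicle values rest on 11 UMIs and its Bleo_NVP values on 2. The edgeR changes of C3ar1 were 1.13 (adjusted p = 0.449) and -2.23 (adjusted p = 0.664). Of the 3475 genes tested in this class 0.173% and 0.0288% were called. A list of 6 genes of scar-associated macrophages summed to between 1271 and 1294 CPM in this class in Bleo_vehicle and to 23.8 and 68.3 CPM in PBS_vehicle. It stood at 37.1, 97.1 and 523 CPM in PBS_NVP and at 46.5 and 613 CPM in Bleo_NVP, so that 1 library of each lay between. The part of that change in the C1q and C3ar1 values was not tested.

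**Figure D4:**
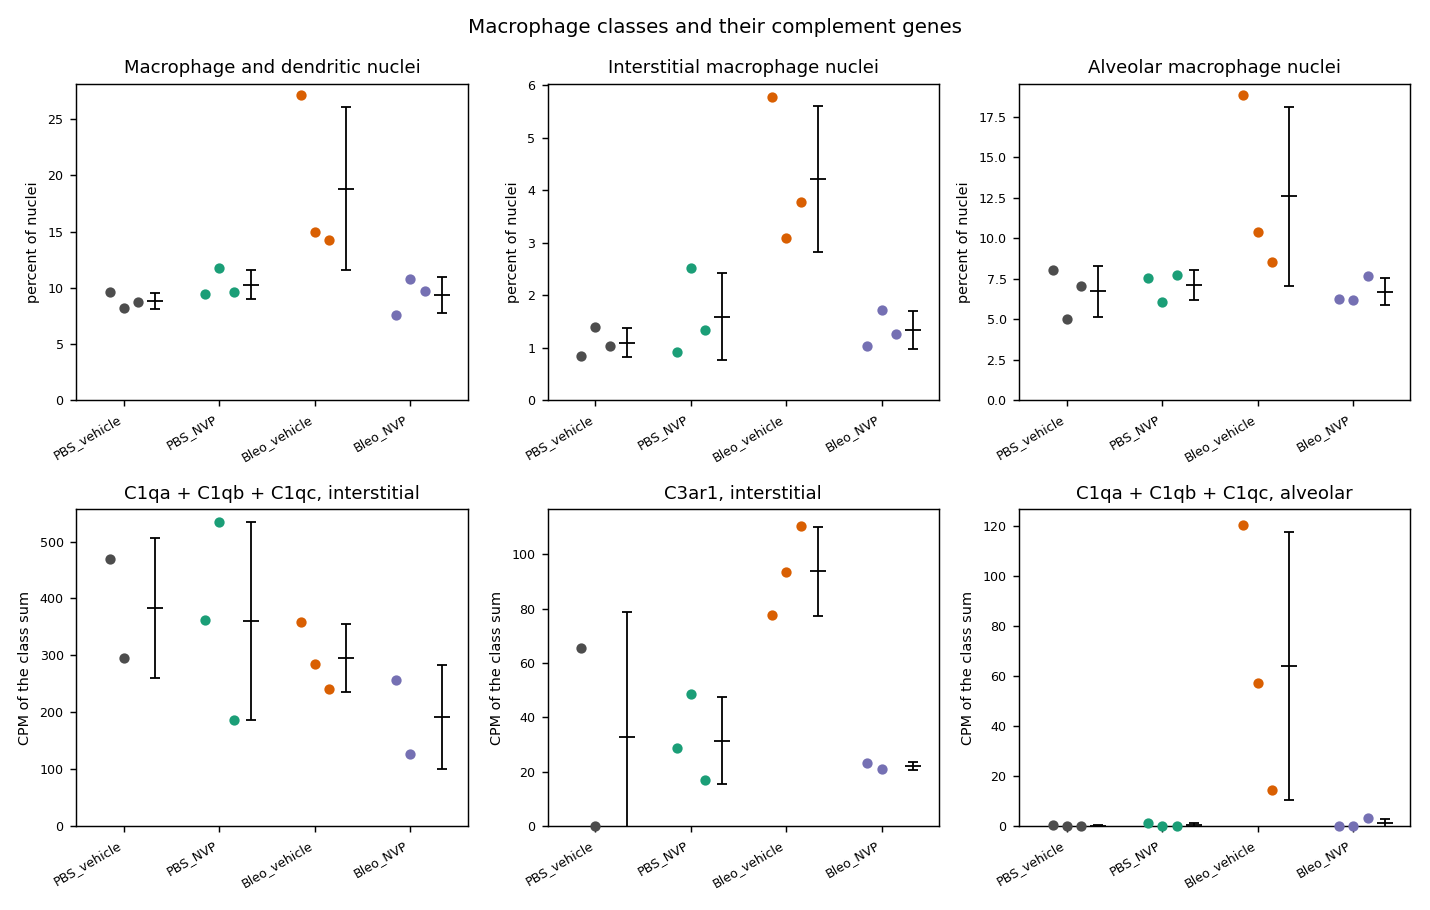
Percent of nuclei in the macrophage and dendritic classes together, in interstitial and in alveolar macrophages (upper panels), and CPM of C1qa + C1qb + C1qc or of C3ar1 in the class sums (lower panels); each point is 1 library with at least 20 nuclei of the class for the CPM panels, with the mean ± SD of its group, bars cut at 0. The joint shares of Bleo_vehicle lie between 14.3% and 27.2% and those of all other groups between 7.62% and 11.8%, while the C1q values of interstitial macrophages overlap between Bleo_vehicle and both PBS groups.

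C1q UMIs were also found outside macrophages and dendritic cells in Bleo_vehicle. They were 35.7%, 50.1% and 54.0% of its C1q UMIs, and stood at 25.8, 16.8 and 12.5 CPM over all other nuclei, against at most 1.42 in any other library. One such class had a call, for a gene with enough counts to be tested there only through Bleo_vehicle, where it is high. In fibroblasts, C1qa had 70 UMIs in Bleo_vehicle, 4 in PBS_vehicle and 0 in Bleo_NVP. The edgeR test called both differences (adjusted p = 0.0203 and 0.0131), at a ratio of 12.0 for bleomycin and at least 8.52-fold lower for Bleo_NVP when 0 is set to a floor of 3 UMIs over the group. Beside it, the 10 naming markers of interstitial macrophages summed to 36.7 to 189 CPM in the fibroblast class of Bleo_vehicle, 6.40 to 19.2 in PBS_vehicle and 7.26 to 14.04 in Bleo_NVP. Of these markers, 6 to 10 were above 0 in a Bleo_vehicle library and 4 to 7 in a PBS_vehicle library. Their part in the C1qa result was not tested. The rise was lost without PBS_vehicle replicate 2 or 3 or Bleo_vehicle replicate 2, and the fall without any 1 of the Bleo_NVP libraries.

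In the alveolar macrophage class C1q had 1 UMI in PBS_vehicle, 195 in Bleo_vehicle and 1 in Bleo_NVP, and no chain passed the filter on low counts. Its naming markers for alveolar macrophages summed to 3241 to 6753 CPM in Bleo_vehicle and 4910 to 8045 in PBS_vehicle. The interstitial macrophage markers overlapped in summed level, at 1632 to 2331 and 1780 to 2215 CPM, with 9 or 10 of 10 above 0 in a Bleo_vehicle library and 5 to 7 in a PBS_vehicle library. Monocyte markers summed to 78.4 to 95.5 CPM in Bleo_vehicle, 18.9 to 38.1 in PBS_vehicle and 23.1 to 49.2 in Bleo_NVP. The scar-associated list summed to 41.5 to 152 CPM in PBS_vehicle and to 505 to 1378 in Bleo_vehicle. AT2 naming markers also rose in this class, from 207 to 249 CPM in PBS_vehicle to 507 to 1506 in Bleo_vehicle. They summed to 126 to 197 CPM in Bleo_NVP. The part of these lists in the C1q values was not tested. C5ar1 in this class stood at 73.4, 30.2 and 67.9 CPM in PBS_vehicle, 40.7, 37.6 and 63.9 in Bleo_vehicle and 43.7, 48.8 and 32.8 in Bleo_NVP, with edgeR changes of -0.18 (SE 0.32, adjusted p = 0.836) and -0.30 (SE 0.36, adjusted p = 0.705).

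Over the 11 classes with enough nuclei, 25 pairs of a gene and a class had enough counts to be tested. Of these, 2 were called in Bleo_vehicle against PBS_vehicle, where 3.07% of all such pairs were called, and 5 in Bleo_NVP against Bleo_vehicle, where 4.13% were. C1qa in fibroblasts is among both, and it had enough counts to be tested only through Bleo_vehicle. In PBS_NVP against PBS_vehicle and in Bleo_NVP against PBS_NVP 0% of pairs were called, and for the difference of inhibitor effects 0.305%, with 1 of the 25.

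C3 fell in fibroblasts with the inhibitor after bleomycin. It stood at 29.2, 16.9 and 21.7 CPM in PBS_vehicle, 40.7, 17.6 and 13.8 in PBS_NVP, 35.2, 38.0 and 37.1 in Bleo_vehicle and 9.46, 13.2 and 9.77 in Bleo_NVP. The Bleo_NVP values lay below all others. The edgeR change was -1.64 (SE 0.34, adjusted p = 0.0125), and that for bleomycin was 0.67 (adjusted p = 0.250). In this class 4.70% of genes were called for bleomycin and 7.68% for the inhibitor after bleomycin. The call was lost without Bleo_NVP replicate 1 or replicate 3. C4b in fibroblasts stood at 94.1, 77.5 and 52.6 CPM in Bleo_vehicle, against 52.8, 30.2 and 30.7 in PBS_vehicle and 41.6, 40.4 and 27.5 in Bleo_NVP, with edgeR changes of 0.91 (adjusted p = 0.0778) and -0.91 (adjusted p = 0.0660). Among clusters of fibroblasts, the adventitial-like cluster of 469 nuclei had most C3, at 82.3 ± 15.5 CPM (n = 6 libraries, none of them Bleo_NVP), and the other clusters averaged 14.5 to 37.6. Its C4b, 142 ± 37.2 CPM, did not differ beyond the spread from the 108 ± 31.9 (n = 12) of another cluster, of 2316 nuclei, and the rest averaged 20.8 to 46.3. In mesothelium C3 stood between 207 and 415 CPM over 8 libraries of all groups, too few per group for a test.

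Hc in AT2 cells varied among mice more than among groups. It stood at 2717, 1501 and 1108 CPM in PBS_vehicle, 2523, 1193 and 1271 in PBS_NVP, 285, 1058 and 2680 in Bleo_vehicle and 1130, 1373 and 1193 in Bleo_NVP. The 3 highest values belonged to the 3 libraries with the most UMIs, and relative to 100 UMIs of the 9 AT2 naming markers these had 17.5, 15.5 and 21.3 Hc UMIs against 5.94 to 11.4 in all others. The edgeR changes in AT2 were -0.28 (SE 0.60, adjusted p = 0.892) and -0.22 (SE 0.60, adjusted p = 0.894), where 4.26% and 5.80% of genes were called.

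Hc was called in airway cells, where it was low. In club cells, the secretory cells of the airway, it stood at 16.3, 20.01 and 18.1 CPM in PBS_vehicle, 12.7, 78.9 and 110 in Bleo_vehicle and 29.0, 37.6 and 8.60 in Bleo_NVP. The edgeR changes were 2.30 (SE 0.43, adjusted p = 0.00342) for bleomycin and -1.70 (SE 0.45, adjusted p = 0.0390) for the inhibitor after bleomycin, although Bleo_vehicle replicate 1, with 1 UMI, lay below PBS_vehicle. In ciliated cells Hc stood at 0, 133 and 109 CPM in Bleo_vehicle and 13.3, 6.30 and 20.7 in Bleo_NVP, with a change of -3.10 (SE 0.75, adjusted p = 0.0282). In ciliated cells the AT2 naming markers summed to 567 to 2425 CPM in Bleo_vehicle and 200 to 410 in Bleo_NVP. In club cells their sums overlapped, at 1328 to 3155 CPM in Bleo_vehicle, 1373 to 2135 in PBS_vehicle and 1436 to 1791 in Bleo_NVP. Relative to 100 of these marker UMIs, club cells had 0.952, 2.50 and 3.50 Hc UMIs in Bleo_vehicle. They had 0.763 to 1.32 in PBS_vehicle and 0.570 to 2.10 in Bleo_NVP. At equal depth 6.43% of club and 5.81% of ciliated nuclei of Bleo_vehicle had an Hc UMI, between the 5.23% of T or NK cells and the 11.8% of B cells in the same group. In PBS_vehicle 1.37% of club and 2.51% of ciliated nuclei had one. The part of AT2 RNA in these results was not tested. The rise in club cells was not called with doublets kept, with stricter filters or without Harmony, and the fall there was lost under 13 of 20 alternatives. The fall in ciliated cells was lost without any 1 of the Bleo_NVP libraries or without Bleo_vehicle replicate 2.

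Cd55 fell in AT1 cells, the flat cells of gas exchange. It stood at 10.7, 35.3 and 18.3 CPM in PBS_vehicle, 14.1, 10.45 and 18.0 in PBS_NVP, 47.9, 44.5 and 39.5 in Bleo_vehicle and 12.1, 19.4 and 16.7 in Bleo_NVP. The Bleo_vehicle values lay above all others. The edgeR change was -1.40 (SE 0.35, adjusted p = 0.0372) for the inhibitor after bleomycin and 1.37 (adjusted p = 0.0667) for bleomycin. The call was lost without any 1 of the Bleo_NVP libraries and without Bleo_vehicle replicate 1 or 2. Club cell markers in the AT1 class summed to 371 to 1146 CPM in Bleo_vehicle and 545 to 664 in Bleo_NVP, and AT2 markers to 237 to 977 and 128 to 188. In club cells, where Cd55 was high, it did not pass the test. It stood there at 50.6, 221 and 284 CPM in Bleo_vehicle and 341, 452 and 310 in Bleo_NVP, with an edgeR change of 0.69 (adjusted p = 0.200).

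**Figure D5:**
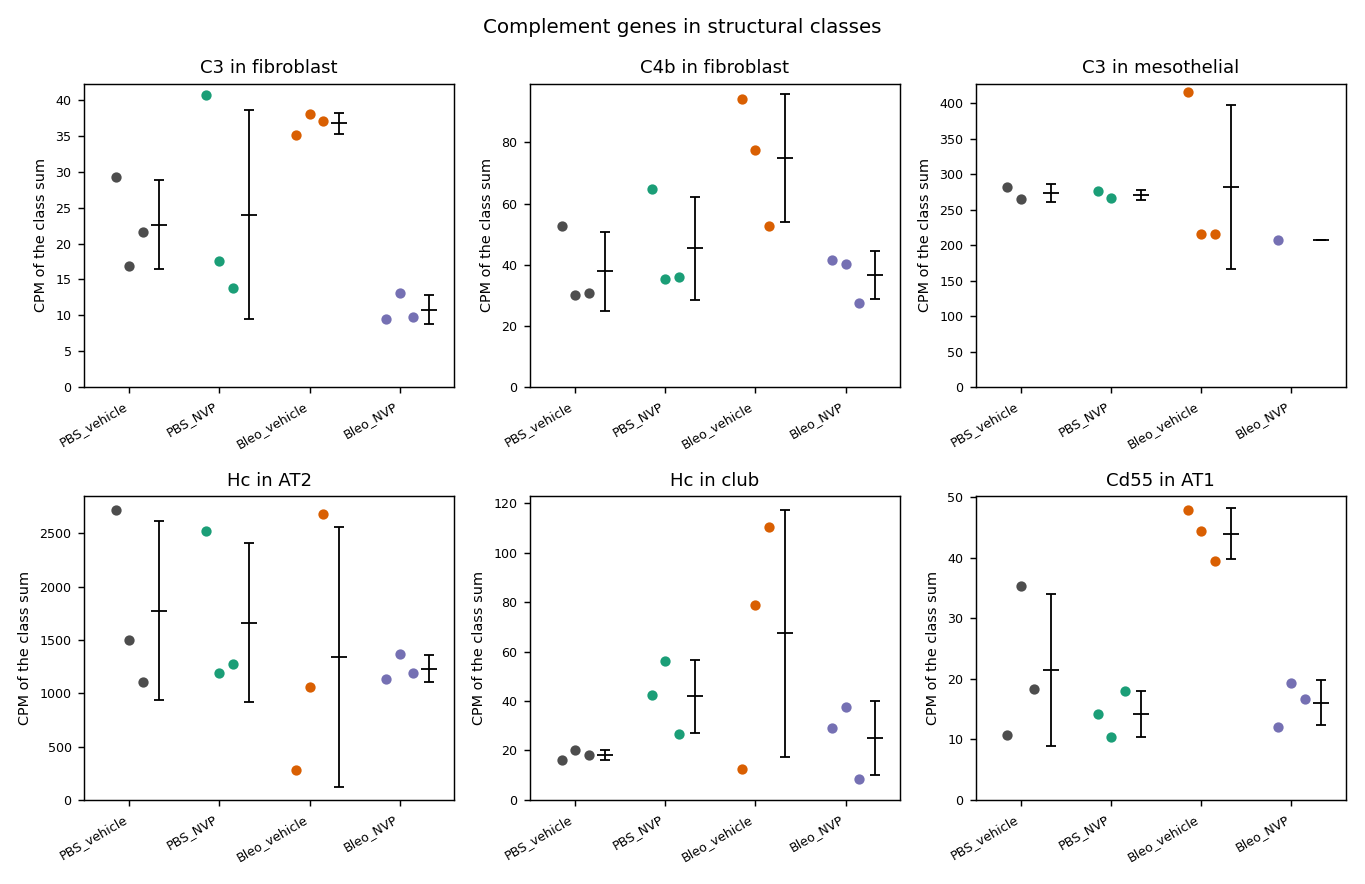
CPM of C3 and C4b in fibroblasts, C3 in mesothelium, Hc in AT2 and club cells, and Cd55 in AT1 cells (vertical axes, linear from 0); each point is 1 library with at least 20 nuclei of the class, with the mean ± SD of its group. Fibroblast C3 in Bleo_NVP, 9.46 to 13.2 CPM, lies below all other points, and AT1 Cd55 in Bleo_vehicle, 39.5 to 47.9 CPM, above all other points.

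Other genes shared the class profile of these 9. Likeness was the Pearson correlation of log2(mean CPM + 1) over 19 classes, computed for 13408 genes as a description. It rests on classes from the same 12 libraries and has no test. The genes most like C1qa were Hpgds (r = 0.92) and Ms4a7 (r = 0.91), and those most like C1qc were Ms4a14 (r = 0.92) and Nxpe5 (r = 0.90). Nxpe5 and Ticam1 (r = 0.86 each) were among the 3 genes most like C1qb. Ms4a7 is among the markers that named the interstitial macrophages. C3ar1 was most like Ptafr and Aif1 (r = 0.92 each), and C5ar1 most like Ticam2 (r = 0.93) and Csf2rb2 (r = 0.91). Bnc2 and Folh1 (r = 0.81 each) were among the 3 genes most like C4b, and C3 was most like Gm13052 (r = 0.88) and Podn (r = 0.87). Hc followed Lamp3 (r = 0.97) and the surfactant gene Sftpc (r = 0.95), both AT2 naming markers, and Cd55 followed the predicted gene Gm15675 (r = 0.96). Among the 9 themselves, C3ar1 correlated with C1qa, C1qb and C1qc at r = 0.83, 0.84 and 0.85, and C3 with C4b at r = 0.83.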

How the data were processed

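Nuclei of 12 frozen mouse lungs were profiled with 1 library each. The authors aligned reads to mm10 (GRCm38) with Cell Ranger and deposited UMI counts per gene and barcode, whole numbers without normalization. Nuclei with 200 to 6000 genes and at most 5% mitochondrial UMIs were kept, and the highest scrublet scores were left out at 0.8% per 1000 nuclei. No correction for free RNA was run, although the study ran one. Principal components (30) were corrected with Harmony and clustered by Leiden (scanpy 1.11.5), and clusters were named from markers, so names may differ from those of the study. UMIs were summed per library and class, or over all kept nuclei, and tested with edgeR 4.0.16 (filterByExpr, TMM, robust quasi-likelihood, 2-sided, group means over 12 libraries). CPM is relative to the UMIs of the same sum. A gene is called at an adjusted p under 0.05. A class needed 20 nuclei in a library and 2 such libraries in each group. Shares were compared by exact permutation tests. A simulation with known changes was used to check the fits.

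The members and lists were chosen with earlier results of these data known. Named genes were the 9 members whatever their values, wider-list genes called in the whole lung or in the class where they are highest, and the genes most like each member. Results of some of these genes are not reported here. Same-numbered libraries were checked for pairing over 18 pairs. Correlations of their deviations ran from -0.18 to 0.85 and 10 exceeded 0.1. All 3 pairs of PBS_vehicle with PBS_NVP did (0.85, 0.57 and 0.68, the first 2 within a run). Between the PBS groups and Bleo_NVP, replicates 2 and 3 did (0.31 to 0.42) and replicate 1 did not (-0.18). The labels state no pairing of mice, and pairing cannot be told apart from run or depth here. The printed changes come from the unpaired fit, and the replicate block also gave 0 calls for PBS_NVP against PBS_vehicle. Alternatives were RLE scaling, no filter on low counts, DESeq2 1.42.0, a replicate block, only the libraries compared, each library left out, doublets kept, stricter filters and no Harmony.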

Additional observations from a re-analysis of the deposited data

Results flagged for a closer look

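Differences between the inhibitor effect after bleomycin and the inhibitor effect after PBS passed the edgeR test. For C1qb in the whole lung the difference was -5.29 on the log2 scale (SE 0.90, adjusted p = 0.0394 by edgeR, from 0.0000143 to 0.135 over the alternatives). C1qb was lower in 3 of 3 Bleo_NVP lungs than in every Bleo_vehicle lung, and the PBS groups overlapped. The gene had enough counts to be tested only through Bleo_vehicle, where it is high. The call was lost under 10 of 18 alternatives, among them leaving out any 1 of the PBS_NVP or Bleo_NVP libraries.

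For Hc in club cells the difference was -2.94 (SE 0.64, adjusted p = 0.0411 by edgeR, from 0.00035 to 0.575 over the alternatives). Bleo_vehicle held 1, 41 and 184 Hc UMIs in this class and Bleo_NVP 4, 17 and 2, and the call was lost under 14 of 19 alternatives.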

How the results depend on the processing

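For the 9 genes, the direction of each call was kept under every alternative that gave a value, and their class levels moved by less than their SD. Calls rested on few mice. For Bleo_vehicle against PBS_vehicle the whole-lung count of 4 became 0 with only the 6 libraries compared and 2 with stricter filters (500 or more UMIs, no more than 1% mitochondrial), and ranged from 2 to 5 without 1 library. The class count of 2 became 29 with no filter on low counts, 5 with DESeq2, 5 with the replicate block and 7 without Harmony, and ranged from 1 (without Bleo_vehicle replicate 2) to 8 (without replicate 3). For Bleo_NVP against Bleo_vehicle the whole-lung count of 5 ranged from 1 to 6 without 1 library, and the class count of 5 became 21 with no filter, 2 with only the 6 libraries and 9 without Harmony, and ranged from 0 (without Bleo_NVP replicate 1 or 3) to 8 (without Bleo_vehicle replicate 1 or 3). For the difference of inhibitor effects the whole-lung count of 1 became 3 with DESeq2, 3 with the replicate block and 0 with the stricter filter (0 to 1 without 1 library), and the class count of 1 became 5, 2 and 4 with no filter, DESeq2 and the block, and 0 with doublets kept or without Harmony (0 to 3). Without the filter, genes of a few UMIs are tested. The other causes were not tested.

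The replicate block gave whole-lung counts of 5, 6 and 0 for Bleo_vehicle against PBS_vehicle, Bleo_NVP against Bleo_vehicle and each comparison with PBS_NVP.

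The interstitial macrophage share, 3.12 points higher in Bleo_vehicle than in PBS_vehicle and -2.87 in Bleo_NVP against Bleo_vehicle, became 0.21 and 0.16 without Harmony, 9.96 and -9.45 with the 3 classes as 1, and 12.6 and -11.9 without Harmony with clusters named from their own markers. It ranged from 2.33 to 3.68 and from -3.44 to -2.09 without 1 library. The alveolar macrophage share, 5.87 and -5.88, became -2.19 and 2.07 under the last setting and ranged from 2.73 to 7.90 and from -7.91 to -2.74. The last settings were chosen after seeing the data.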

Other observations

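Within classes, other genes of the wider complement list passed the edgeR test, though C7, C6, Cd93 and Cd46 did not in the class where each was highest. They were chosen after their values were seen. Some may have had enough counts to be tested only through Bleo_vehicle, where they are high, so their calls serve as description. C7, a terminal component, averaged 2854 ± 575 CPM in fibroblasts (n = 12) and was called in club cells, with 13 UMIs in PBS_vehicle, 161 in Bleo_vehicle and 8 in Bleo_NVP. It was also called in AT1, general capillary, ciliated and alveolar macrophage nuclei, in at least 1 of the same comparisons. The rise of C7 in AT1 cells was lost under 11 of 20 alternatives and that in club cells only without Bleo_vehicle replicate 2. Its rise was lost under 5 of 20 in general capillary nuclei and 1 of 20 in alveolar macrophages. Its fall was lost under 9 of 20 in general capillary, 7 of 19 in ciliated, 4 of 20 in AT1 and 3 of 19 in club nuclei. Cd93 and Cd46 were called in alveolar macrophages, Cd93 with 31 UMIs in PBS_vehicle and 171 in Bleo_vehicle, and Cd46 with 148 in Bleo_vehicle and 6 in Bleo_NVP. The Cd93 call was lost under 3 of 18 alternatives and the Cd46 call under 8 of 20. Fibroblast naming markers in that class summed to 37.1 to 94.3 CPM in PBS_vehicle and 112 to 249 in Bleo_vehicle. C6, a terminal component highest in AT2 cells at 172 ± 75.9 CPM, was called in fibroblasts, with 170 UMIs in PBS_vehicle, 641 in Bleo_vehicle and 59 in Bleo_NVP. AT2 naming markers in fibroblasts summed to 113 to 303, 343 to 1351 and 107 to 149 CPM in these groups.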
